A study of Homo sapiens with 4 samples.

Results

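The solute carriers are the large superfamily of membrane proteins, named SLC with a family number, that move nutrients, ions and metabolites across cell membranes. Of 374 protein-coding SLC genes in GENCODE 44, 168 were followed here in l-lactate-treated esophageal squamous cell carcinoma (ESCC) cells. They were chosen by symbol and by holding, on their own strand, a poly(A) site cluster (PAC) above 5 TPM in at least 1 library. The glucose transporters SLC2A1 and SLC2A3, the lactate transporters SLC16A1, SLC16A3 and SLC16A7 and the copper transporters SLC31A1 and SLC31A2 were left out by name, 6 of which had such a PAC. Both lines used, KYSE30 and TE-1, are established cell lines of human ESCC. PAS-seq reads out where polyadenylated transcripts end. It was run on 4 libraries, 1 per line from a culture exposed to l-lactate (20 mM, 24 h) and 1 per line from a control culture that received PBS. The cell line tags of the control samples read KYSE32 and TE-3, but titles and methods name KYSE30 and TE-1, and the titles were followed. Nothing in the labels gives further cultures, so no spread within a condition could be measured.

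A solute carrier is a passive facilitator, an exchanger or a symporter, and many of those in the plasma membrane draw on the sodium gradient kept by the sodium pump. Most of family SLC25 sits in the inner mitochondrial membrane, and many members of families SLC35, SLC37 and SLC33 in the ER and Golgi. SLC30 and SLC39 move zinc out of and into the cytosol, respectively. l-lactate itself crosses the plasma membrane with a proton through SLC16 carriers, and acid-base carriers of the SLC4 and SLC9 families restore pH.

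The TPM of a PAC is its number of sequenced 3′ ends (tags), scaled so that every library has the same total, with no correction for length, so values of different genes can be set side by side. The libraries held 7174991 and 7425554 tags for KYSE30 with l-lactate and its control and 8468958 and 10393799 for TE-1. A PAC under about 1 TPM (8 to 11 tags) was not listed in a library. Per the study's methods, PACs of a single site under 3 TPM were also removed, so an unlisted PAC of that kind can lie higher. A gene without a listed PAC is called not listed, and no fold is printed against it. The fits and the counts of genes past a fold enter it as 0, so such a gene can be counted but its fitted difference is no bound. Of the squamous markers KRT5, KRT14, KRT6A, KRT17, TP63, DSG3 and SFN only 2 were listed, KRT6A in KYSE30 (40.4 TPM with l-lactate and 20.3 in the control) and KRT17 in TE-1 (187 and 245 TPM). All 4 epithelial markers were listed, with CDH1 at 228 and 204 TPM in KYSE30 and at 1.3 TPM or not listed in TE-1. Of 8 markers of blood, vessel and stromal cells, 3 were listed, with summed TPM of 3.5 to 5.4 in KYSE30 and 23.7 to 24 in TE-1. The part of these differences in the results below was not tested. In bulk RNA, fewer cells of a type and less RNA per cell cannot be told apart.

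Of the 168 genes, 167 had a level of their own. The only PAC within SLC13A3, a dicarboxylate carrier, lay in the 3′ UTR of TP53RK and was not counted for it. Summed over their PACs, 119 of the 167 exceeded 5 TPM in all 4 libraries, 8 in 3, 33 in 2 and 7 in 1. The members together held 7153 TPM in KYSE30 with l-lactate and 6790 in its control, and 8724 and 8503 TPM in TE-1. The median member had a mean of 21.1 TPM, against 28.2 TPM for the 9413 protein-coding genes with a PAC above 5 TPM. A few genes carried most tags, and 15 of the 167 made up 50% of the summed level.

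SLC25A3, which brings phosphate into mitochondria for ATP synthesis, was the highest member. Its levels were 1464 and 1372 TPM in KYSE30 with l-lactate and in the control, and 1420 and 1428 TPM in TE-1, 18.2% of the summed level of all members. The 4 values lay close together, with a log2 difference between lines of -0.01 ± 0.06 (SE; adjusted p = 0.926). The amino acid transporter SLC38A2, which takes up glutamine and other small neutral amino acids with sodium, came next at 605, 471, 381 and 303 TPM in the same order. SLC3A2, the heavy chain that carries SLC7 transporters to the plasma membrane, stood at 251, 236, 571 and 589 TPM. SLC2A4RG reached 159, 174, 363 and 402 TPM but encodes a transcription regulator, and it, SLC4A1AP and SLC7A6OS are members by symbol only.

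The first comparison asks which carriers the lines express at different levels, whatever the treatment. With limma on log2(TPM + 1), 28 of 167 members (16.8%) were at least 2-fold higher in KYSE30 and 43 (25.7%) at least 2-fold higher in TE-1 at an adjusted p of at most 0.05. Of all 9413 genes, 18.8% and 17.4% were called in these directions. Of the 28 and 43 members, 12 and 9 were listed in that line alone and so passed the 5 TPM limit only through the line where they are high. Those above 5 TPM in all 4 libraries numbered 13 and 20. No shares of all genes are given beside these subsets or the counts with a library left out, so they describe the members only. The median difference, KYSE30 minus TE-1, was -0.20 over members and 0.00 over all genes. Each line has 2 libraries, of different treatment, and the fit has 1 residual degree of freedom, with variances moderated across genes. Fits with a library left out, here and below, held the line term alone. The gap between l-lactate and control in the line with 2 libraries then counted as spread, so a lost call can reflect that gap. When each library was left out in turn, the number of members called fell from 71 to between 53 and 57, and 18 higher in KYSE30 and 21 higher in TE-1 were called each time. The split moved most without the TE-1 l-lactate library, where 26 were called higher in KYSE30 and 27 in TE-1.

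**Figure D1:**
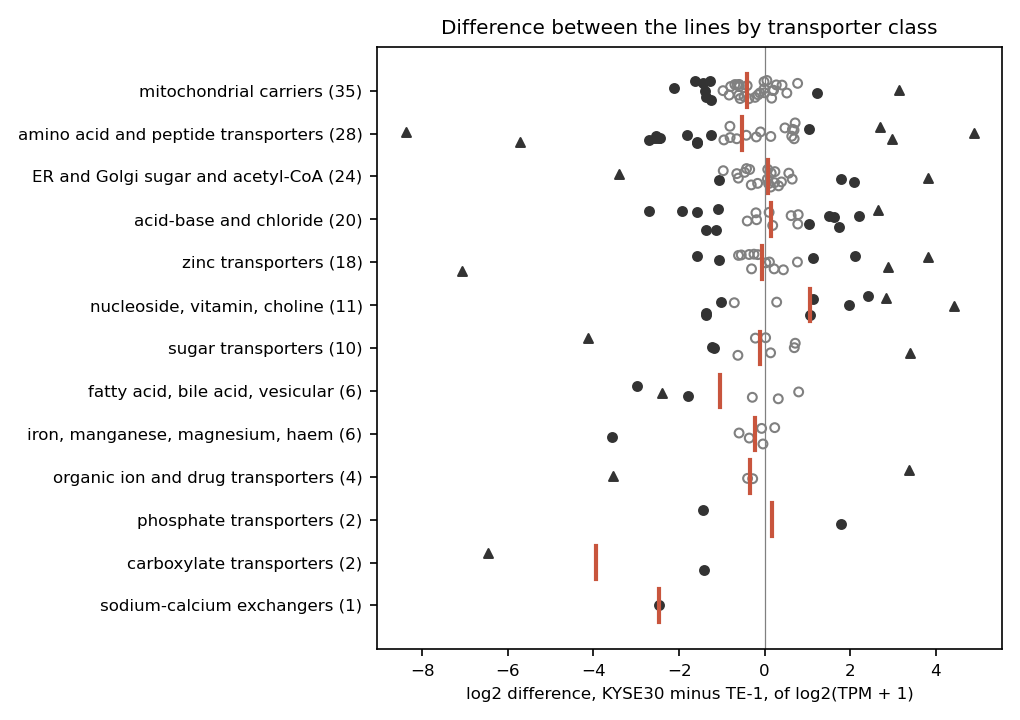
Difference in level between the lines for 167 solute carrier genes (points), by transporter class (number of members in brackets); filled symbols were called at adjusted p of at most 0.05 and 2-fold, triangles are genes listed in 1 line only, and red bars are class medians. The amino acid class lies mostly left of 0 (median -0.54) and the nucleoside, vitamin and choline class mostly right of it (median 1.05).

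Of 28 members placed by family number among the amino acid and peptide transporters, 10 were called higher in TE-1, 4 in KYSE30 and 14 were not called, with a median difference of -0.54. The shares of all genes were 17.4% and 18.8%, and the class was not tested against them. SLC7A5, the light chain that exchanges large neutral amino acids such as leucine as a pair with SLC3A2, had 56.5 and 44.6 TPM in KYSE30 (l-lactate, then control) and 268 and 285 TPM in TE-1. The groups did not overlap, and its mean was 5.47-fold higher in TE-1 (log2 difference -2.44 ± 0.10, adjusted p = 6.07e-08). Its partner SLC3A2 was 2.38-fold higher in TE-1 (-1.25 ± 0.07, adjusted p = 2.4e-07). SLC1A4, a sodium-dependent exchanger of serine and alanine, had 2.65, 4.85, 30.4 and 28.1 TPM. It was called higher in TE-1 (adjusted p = 3.59e-06), but not with either TE-1 library left out (adjusted p = 0.0559 without the l-lactate library and 0.0534 without the control).

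Some members of this class were listed in 1 line alone. SLC43A3, which is in the class by its family number but is known as a purine base transporter, was not listed in KYSE30 and stood at 356 and 314 TPM in TE-1. SLC38A5, which moves glutamine and histidine, was likewise not listed in KYSE30 and had 52.8 and 49.9 TPM in TE-1. In the other direction, SLC1A3, a glutamate and aspartate transporter, had 28.4 and 28.6 TPM in KYSE30 and was not listed in TE-1. The glutamate transporter SLC1A6 had 11.9 and 3.77 TPM in KYSE30 and was not listed in TE-1. Its call was lost without either TE-1 library, in fits where the gap between its KYSE30 values counted as spread. SLC1A5, the main glutamine exchanger of many tumor cells, differed less. Its levels were 54.6 and 57.6 TPM in KYSE30 and 33.3 and 34.4 TPM in TE-1 (log2 difference 0.71 ± 0.10, adjusted p = 1.91e-04), under the 2-fold limit. SLC7A11, the cystine exchanger, had no PAC above 5 TPM and was not among the members.

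**Figure D2:**
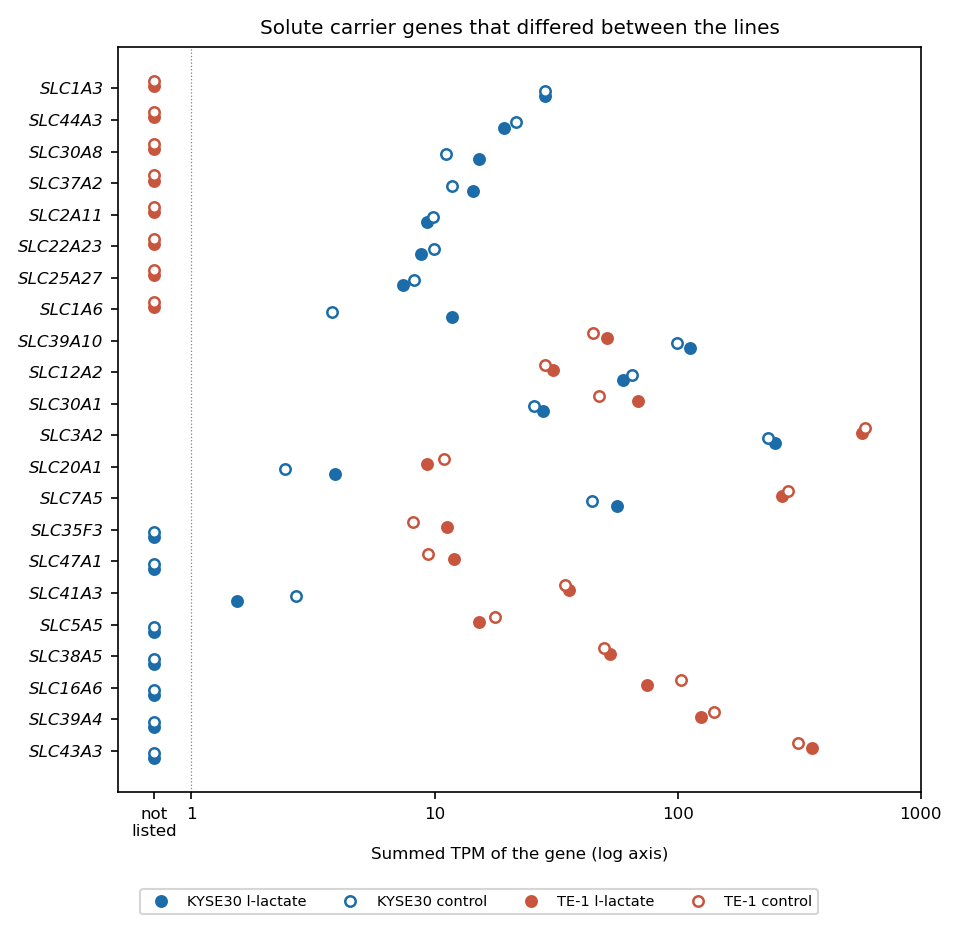
Summed TPM (log axis) of 22 solute carrier genes called between the lines, by library; filled symbols are l-lactate and open symbols control, and points at the left edge mark libraries where no PAC was listed. SLC43A3 reached 356 TPM in TE-1 without being listed in KYSE30, and SLC1A3 28.6 TPM in KYSE30 without being listed in TE-1.

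Of 11 nucleoside, vitamin and choline transporters, 6 were called higher in KYSE30 and 3 in TE-1, against 18.8% and 17.4% of all genes, and the class was not tested. SLC44A2, a choline-transporter-like protein, was the highest of the class, at 119 and 116 TPM in KYSE30 and 27.9 and 30.4 TPM in TE-1 (4.04-fold, adjusted p = 1.5e-07). Its relative SLC44A3 had 19.2 and 21.7 TPM in KYSE30 and was not listed in TE-1. SLC29A3, an equilibrative nucleoside transporter of lysosomes, was named after its values were seen. It had 42.4 and 52.7 TPM in KYSE30 and 8.97 and 7.31 TPM in TE-1, 5.83-fold higher in KYSE30 (adjusted p = 1.48e-06).

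Zinc transporters were split. Of 18 members, 4 were called higher in KYSE30 and 3 in TE-1, against 18.8% and 17.4% of all genes, and the class was not tested. SLC39A4, the zinc importer of intestinal uptake, was not listed in KYSE30 and had 125 and 142 TPM in TE-1. SLC39A14, which imports zinc and non-transferrin iron, had 45.2, 35.6, 134 and 109 TPM, 3.02-fold higher in TE-1. The call of SLC39A14 was lost narrowly without the KYSE30 control (adjusted p = 0.0501) or without the TE-1 l-lactate library (adjusted p = 0.0513). The exporter SLC30A1 had 27.9 and 25.6 TPM in KYSE30 and 68.8 and 47.6 TPM in TE-1 (adjusted p = 4.74e-05), and its call was kept only without the TE-1 control. Its adjusted p was 0.122 without the KYSE30 l-lactate library and 0.143 without the KYSE30 control, and its difference was -0.81 without the TE-1 l-lactate library. In KYSE30, SLC39A11 was 4.56-fold higher (61.5 and 70.6 against 13.1 and 15.9 TPM) and SLC39A10 was 2.22-fold higher (113 and 99.4 against 51.0 and 44.7 TPM). SLC30A8, which loads zinc into insulin granules of beta cells, had 15.2 and 11.2 TPM in KYSE30 and was not listed in TE-1. The highest zinc transporter by mean level, SLC39A1, was 1.53-fold higher in TE-1, below the limit.

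Among 20 acid-base, chloride and cation-chloride carriers, 6 were called higher in each line. Of all genes, 18.8% were called higher in KYSE30 and 17.4% in TE-1, and the class was not tested against them. The sodium-potassium-chloride cotransporter SLC12A2 was 2.09-fold higher in KYSE30, with 59.5, 64.6, 30.7 and 28.6 TPM, and fell under 2-fold without the KYSE30 control or without the TE-1 control while its adjusted p stayed between 0.0272 and 0.0311. The sulfate transporter SLC26A2, the highest of the class, had 96.7, 101, 26.1 and 16.3 TPM. It was called (adjusted p = 1.56e-06), but its adjusted p was 0.0672 without the KYSE30 l-lactate library and 0.0711 without the KYSE30 control. SLC4A7, a sodium bicarbonate cotransporter, had 19.7, 11.9, 24.2 and 17.5 TPM and was not called, since its difference of -0.41 ± 0.15 was under 2-fold.

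Of 35 members placed by family number among the mitochondrial carriers, 26 were not called between the lines. A further 7 were higher in TE-1 and 2 in KYSE30, against 17.4% and 18.8% of all genes, and the class was not tested. The ADP/ATP carrier SLC25A5 had 85.0, 70.8, 59.98 and 74.95 TPM (log2 difference 0.21 ± 0.13, adjusted p = 0.175). It has near-identical copies in the genome, so its tags are less certain, and SLC25A6 had no PAC placed on it. SLC25A27, an uncoupling protein of the family, had 7.39 and 8.21 TPM in KYSE30 and was not listed in TE-1. Named after their values were seen, the mitochondrial citrate carrier SLC25A1 was 2.47-fold higher in TE-1 (45.0, 48.5, 115 and 115 TPM) and the folate carrier SLC25A32 was 2.76-fold higher in TE-1 (31.8, 32.9, 90.3 and 88.0 TPM).

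The class of ER and Golgi carriers, which supply nucleotide sugars and other donors, held 24 members by family number, and 19 were not called. In it 3 were called higher in KYSE30 and 2 in TE-1, against 18.8% and 17.4% of all genes, and the class was not tested. SLC35F2 had the highest mean of this class, with 79.6, 73.5, 101 and 89.9 TPM. SLC37A2, a sugar phosphate carrier, had 14.4 and 11.9 TPM in KYSE30 and was not listed in TE-1, and SLC35F3 was not listed in KYSE30 and had 11.2 and 8.18 TPM in TE-1. SLC33A1, which carries acetyl-CoA into the ER lumen for protein acetylation, stood at 29.7, 23.8, 24.9 and 22.8 TPM, and its lines overlapped (log2 difference 0.15 ± 0.13, adjusted p = 0.319).

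The remaining classes were small, apart from the sugar transporter families. Of their 10 members, 1 was called higher in KYSE30 and 3 in TE-1, against 18.8% and 17.4% of all genes. Those 3 were SLC2A4RG, the transcription regulator, SLC5A5, which carries iodide, and SLC45A4, named after its values were seen. Among 6 iron, manganese, magnesium and haem carriers 1 was called, higher in TE-1 (17.4% of all genes), and the highest, SLC11A2, had overlapping lines. The vesicular polyamine transporter SLC18B1 had 24.9, 23.2, 23.6 and 15.4 TPM and the organic cation transporter family member SLC22A18 had 25.1, 23.6, 34.8 and 30.1 TPM, and neither was called. The monocarboxylate carrier SLC16A6 was not listed in KYSE30 and had 74.9 and 103 TPM in TE-1. SLC5A5, the iodide transporter of the thyroid, was not listed in KYSE30 and had 15.2 and 17.8 TPM in TE-1. The multidrug and toxin extruder SLC47A1 was not listed in KYSE30 and had 12.0 and 9.43 TPM in TE-1. SLC41A3, a magnesium transporter family member, had 1.53 and 2.69 TPM in KYSE30 and 35.8 and 34.35 TPM in TE-1, a mean 16.6-fold higher. The mitochondrial sodium-calcium exchanger SLC8B1 was 6.12-fold higher in TE-1, with 6.83, 3.23, 30.8 and 30.8 TPM, and its call was lost without either TE-1 library (adjusted p = 0.0846 without l-lactate and 0.0847 without the control). The phosphate transporters went opposite ways. SLC20A2 had 59.8, 59.9, 19.4 and 14.1 TPM and was 3.57-fold higher in KYSE30, and SLC20A1 had 3.90, 2.42, 9.33 and 10.97 TPM and was 3.21-fold higher in TE-1. SLC20A2 was not called without either KYSE30 library (adjusted p = 0.0548 without l-lactate and 0.0563 without the control), nor SLC20A1 without either TE-1 library (adjusted p = 0.0775 and 0.0938, in the same order). In KYSE30 alone, SLC2A11, a hexose transporter, had 9.34 and 9.83 TPM and the organic ion carrier SLC22A23 had 8.78 and 9.97 TPM.

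The beta subunits of the sodium pump, which maintains the gradient many carriers use, were followed beside the carriers. ATP1B1 had 54.9, 54.7, 696 and 607 TPM, and ATP1B3 had 97.7, 70.2, 244 and 252 TPM. Both were called higher in TE-1 (adjusted p = 1.76e-09 and 1.72e-06). Of 10 genes of the amino acid response, the ATF4-driven program that raises amino acid transporters under shortage, 7 were tested and 2 were called higher in TE-1 and 0 in KYSE30, against 17.4% and 18.8% of all genes. These were PSAT1, a serine synthesis enzyme (134, 114, 313 and 277 TPM), and the transcription factor CEBPB (69.7, 67.3, 274 and 214 TPM). ATF4 itself had 202, 188, 246 and 245 TPM.

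The next comparison asks what l-lactate did to the level of the carriers. Across the lines, limma called 0 of 167 members at an adjusted p of at most 0.05, and 0 of all 9413 genes (0%). At an unadjusted p under 0.05 there were 22 members (13.2%), 16 higher and 6 lower with l-lactate, against 9.6% of all genes. The lowest adjusted p among members was 0.296, for SLC38A2. The median log2 change of members was 0.02 in KYSE30 and 0.06 in TE-1, against 0.00 and 0.03 for all genes tested. With a pseudocount of 5 in place of 1, 6 members were called, against 1.58% of all genes, namely SLC38A2, SLC4A7, SLC35B4 and SLC35E3 higher and SLC25A16 and SLC27A5 lower.

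Within a line no test was possible, and a change of 1.5-fold was counted. In KYSE30, 8 members (4.79%) were up and 6 (3.59%) down, against 2.32% and 2.36% of all genes. Among these, SLC6A8 was not listed in the control, and SLC27A4 and SLC27A5 were not listed with l-lactate (named after their values were seen). In TE-1, 6 (3.59%) were up and 3 (1.8%) down, against 2.85% and 1.7%. Most of these were low. No share of all genes above 10 TPM is given here, so the next counts describe the members only. Of members above 10 TPM in both libraries of the line, 1 of 113 passed the fold in KYSE30 and 3 of 122 in TE-1. Named after their values were seen, these were SLC4A7 in KYSE30, and SLC18B1 (15.4 TPM in the control and 23.6 with l-lactate), SLC26A2 (16.3 and 26.1 TPM) and SLC27A5 (20.6 and 12.0 TPM) in TE-1.

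**Figure D3:**
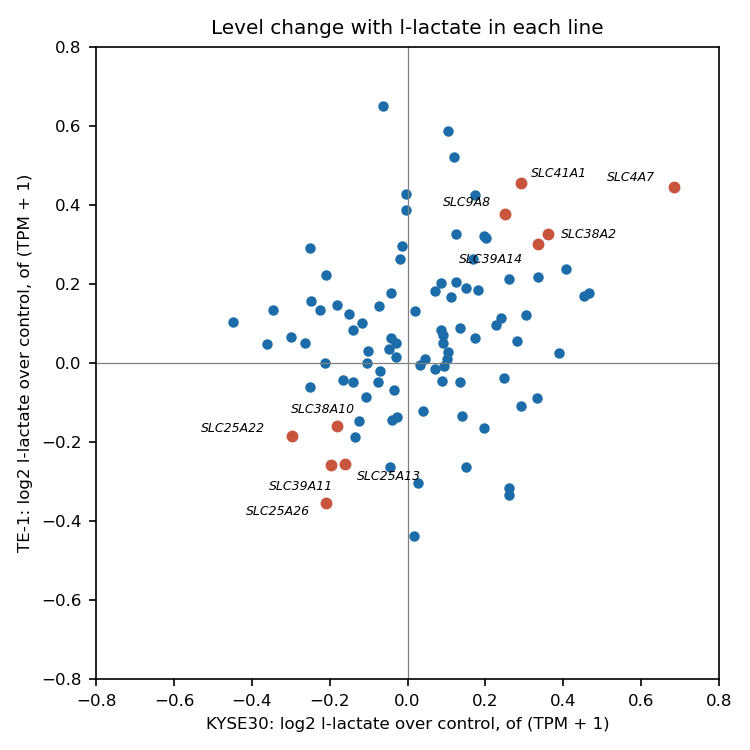
log2 change of level with l-lactate in KYSE30 (horizontal) and in TE-1 (vertical), on log2(TPM + 1), for the 97 members above 10 TPM in every library (points); the 5 with the largest increases and 5 with the largest decreases shared by the lines are red and named. SLC4A7 lies farthest up and right, at 0.68 and 0.45. Of the 97, 37 were higher with l-lactate in both lines and 18 lower in both, with no share of all genes beside these counts.

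Of the 97 members above 10 TPM in every library, 37 were higher with l-lactate in both lines and 18 lower in both. No such count over all genes is given here, so these numbers describe the members only. The median log2 change of all genes tested was 0.00 in KYSE30 and 0.03 in TE-1. SLC4A7 had the largest shared increase, from 11.9 to 19.7 TPM in KYSE30 and from 17.5 to 24.2 TPM in TE-1. The counting intervals of its log2 tag ratio were 0.34 to 1.13 and 0.17 to 0.76. They cover counting error only, since amplified tags are not independent molecules and cultures were not repeated. Across the lines its change was 0.56 ± 0.15 (adjusted p = 0.397).

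SLC38A2 went from 471 to 605 TPM in KYSE30 (log2 tag ratio 0.36, interval 0.30 to 0.43) and from 303 to 381 TPM in TE-1 (0.33, interval 0.26 to 0.40). Its change across the lines was 0.34 ± 0.06, with adjusted p = 0.296. The zinc importer SLC39A14 went from 35.6 to 45.2 TPM and from 109 to 134 TPM (across the lines 0.32 ± 0.09, adjusted p = 0.397). SLC41A1, a magnesium carrier, went from 18.1 to 22.3 TPM and from 17.9 to 24.9 TPM, and the endosomal sodium-proton exchanger SLC9A8 from 15.9 to 19.1 TPM and from 14.05 to 18.5 TPM. These 5 genes were picked for a rise in both lines, so their shared direction is no result, and none passed the test.

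The 5 members with the largest shared decreases differed less, and none passed the test. SLC25A26, which imports S-adenosylmethionine into mitochondria, had 22.4 TPM with l-lactate and 26.1 in the control of KYSE30, and 17.5 and 22.6 TPM in TE-1. SLC39A11 had 61.5 against 70.6 and 13.1 against 15.9 TPM. The glutamate carrier SLC25A22 had 15.6 against 19.4 and 24.7 against 28.2 TPM. The aspartate-glutamate carrier SLC25A13 had 92.0 against 103 and 89.7 against 107 TPM, and SLC38A10 had 85.4 against 97.1 and 61.8 against 69.1 TPM. Their adjusted p lay between 0.477 for SLC25A13 and 0.631 for SLC25A22.

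For SLC7A5 the change across the lines was 0.12 (95% interval -0.11 to 0.36), for SLC1A5 -0.06 (-0.30 to 0.17) and for SLC25A3 0.04 (-0.09 to 0.18). SLC11A2, the divalent metal transporter of iron uptake, went from 49.3 to 65.6 and from 53.8 to 63.6 TPM (0.32 ± 0.10, adjusted p = 0.419). No amino acid response gene or beta subunit gene of the sodium pump was called with l-lactate, and ASNS, which makes asparagine, had 98.5 against 103 TPM in KYSE30 and 74.9 against 82.5 TPM in TE-1.

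The last comparisons concern the choice of 3′ end. Transcripts of a gene with a proximal and a distal poly(A) site (pPAS and dPAS) carry a short or a long 3′ UTR, and distal usage is here the share of the gene's 3′ UTR tags in its most distal PAC. The members held 202 PACs above 5 TPM, 188 of them in a 3′ UTR, 4 in other exons and 10 in introns. Only 24 genes had 2 or more such PACs in the 3′ UTR, 14.4% of members against 21.6% of all genes tested. In 21 of the 24 both outer sites lay in the same 3′ UTR exon. SLC11A2, SLC30A5 and SLC38A6 end in different terminal exons, and SLC38A6 had the widest distance, 31277 nt, against a median of 1789 nt.

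The canonical poly(A) signal AATAAA stood within 50 nt upstream of the dominant site, on the sense strand, in 71.3% of the members' 3′ UTR PACs and in 68.1% of 11643 PACs of all genes. ATTAAA without AATAAA was found in 17% and 16.7%. In the 24 members with 2 or more sites, AATAAA stood at 20 distal and 10 most proximal sites (83.3% and 41.7%), where all 2031 genes of this kind had 72.7% and 54.1%. TGTA, the motif bound by the cleavage factor subunit NUDT21, was sought within 100 nt and found at 53.2% of the members' 3′ UTR PACs and 58.6% of all.

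The sites of 3 genes whose distal usage changed by 10 percentage points or more with l-lactate show how far these signals differ. Each line gives the 30 nt of the reference (GRCh38, sense strand, 5′ to 3′) that end at the dominant site, with AATAAA in capitals.
SLC33A1 proximal, chr3:155827331-155827360, minus strand: ttgaaAATAAAaattaaatgtttttcttca
SLC33A1 distal, chr3:155826520-155826549, minus strand: gAATAAAgaaaaaaaaccacttaactctta
SLC30A1 proximal, chr1:211575040-211575069, minus strand: attagggggataAATAAAattgttactgga
SLC30A1 distal, chr1:211571636-211571665, minus strand: attgttatgtattataaatgttctatatga
SLC9A8 proximal, chr20:49890364-49890393, plus strand: tagaagatataaaaatacgcagcttaacta
SLC9A8 distal, chr20:49892213-49892242, plus strand: tagaAATAAAgtgtatgctgctgaattgga
Both SLC33A1 sites carry AATAAA. Of AATAAA and ATTAAA, the only signals searched, SLC30A1 has AATAAA at its proximal site and neither within 50 nt of its distal site, and SLC9A8 has AATAAA at its distal site and neither at its proximal site.

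Within KYSE30, 17 members had a distal usage, and 2 of them (11.8%) were higher and 3 (17.6%) lower with l-lactate by 10 percentage points or more, against 3.24% and 5.81% of all genes. Within TE-1, 2 of 19 (10.5%) were higher and 1 (5.26%) lower, against 6.17% and 5.2%. These compare single libraries and carry no test. Across the lines limma called 0 of 22 members and 0 of 1928 genes (0%), with 4 members at an unadjusted p under 0.05 (18.2%, against 17.1% of genes). The lowest adjusted p was 0.183. With only PACs listed in all 4 libraries, 4 members were called, SLC25A36, SLC25A37, SLC30A1 and SLC35C2, against 13% of genes, and with PACs above 10 TPM SLC25A37 and SLC30A1 were called, against 15.8% of genes.

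SLC33A1 was the member that changed past 10 points in both lines, in opposite directions. In KYSE30 the distal site had 96 of 213 tags with l-lactate and 100 of 177 in the control, 45.1% (Wilson 95% interval 38.5 to 51.8%) against 56.5% (49.1 to 63.6%). In TE-1 it had 124 of 211 and 113 of 237 tags, 58.8% (52.0 to 65.2%) against 47.7% (41.4 to 54.0%). The changes were -11.4 points (counting interval -21.1 to -1.46) and 11.1 points (1.83 to 20.1). In KYSE30 the proximal site went from 10.4 to 16.3 TPM while the distal site stood at 13.5 and 13.4 TPM, and in TE-1 the distal site went from 10.9 to 14.6 TPM while the proximal site went from 11.9 to 10.3 TPM. SLC33A1 was chosen for this opposite change, so its values are a description. Its 2 sites lie 811 nt apart, and a readthrough transcript overlaps the gene.

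Only SLC33A1, of 1251 genes with a distal usage in both lines, passed 10 points in opposite directions, where 32 passed 10 points in both. Because SLC33A1 was chosen for this pattern, the count repeats that choice and is no test of it. SLC35C2, a nucleotide sugar carrier family member of the Golgi, had more distal usage with l-lactate in both lines. Its distal usage was 19.7% with l-lactate and 8% in the control of KYSE30, and 19.0% and 10.03% in TE-1, or 38 of 193, 18 of 225, 51 of 268 and 34 of 339 tags. The changes were 11.7 points and 9 points, 10.3 ± 2.9 across the lines (adjusted p = 0.183).

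SLC30A1 and SLC25A37 had less distal usage with l-lactate, by over 10 points in KYSE30. The zinc exporter SLC30A1 had 61.0% with l-lactate and 77.4% in the control of KYSE30, and 75.1% and 78.6% in TE-1. Its changes were -16.4 points (counting interval -25.1 to -7.21) and -3.46 points (-8.45 to 1.62), -9.91 ± 3.66 across the lines (adjusted p = 0.263). SLC25A37, which brings iron into mitochondria for haem synthesis, had 52.5% against 65.3% in KYSE30 and 63.3% against 68.0% in TE-1, a change of -12.7 points and -4.64 points. In both genes the l-lactate library of KYSE30 stood below the other three.

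SLC25A36, a pyrimidine nucleotide carrier, had 35.3% against 58.2% in TE-1, a difference of -22.9 points (counting interval -35.0 to -9.43), from 85 and 141 tags. In KYSE30, where its proximal site stayed under 5 TPM, it had 57.6% against 77.3% from 59 and 66 tags. Across the lines the change was -21.3 ± 6.3 points (adjusted p = 0.199). SLC9A8 had 70.8% against 55.9% in KYSE30 (14.9 points, 3.04 to 26.2) and 49.7% against 56.8% in TE-1 (-7.17 points, -18.1 to 4.04). SLC1A4 had 61.5% against 51.4% in TE-1, a difference of 10.1 points (1.79 to 18.2). Members with a site under 5 TPM in a line were not counted in that line.

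**Figure D4:**
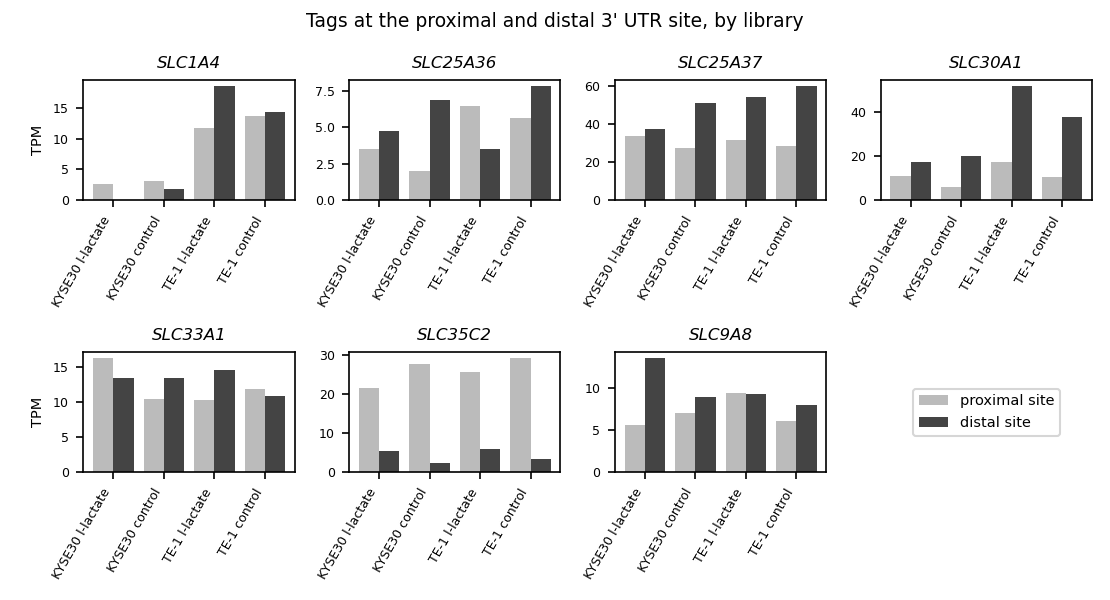
TPM (vertical, from 0) at the proximal (grey) and distal (black) 3′ UTR site in each library, for the 7 members whose distal usage changed by 10 percentage points or more with l-lactate in a line. In SLC33A1 the proximal bar is the taller in KYSE30 with l-lactate (16.3 TPM) and the distal bar in TE-1 with l-lactate (14.6 TPM); in SLC35C2 the distal bar is higher with l-lactate in both lines.

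Between the lines, limma called 8 of 22 members at an adjusted p of at most 0.05 and 10 points. Distal usage was higher in KYSE30 for 6 (27.3%, against 18.4% of 1928 genes) and higher in TE-1 for 2 (9.09%, against 7.05%). With any of the 4 libraries left out, 0 were called, and each call had a single residual degree of freedom behind it.

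SLC30A5, a zinc transporter of the early secretory pathway, had the lowest adjusted p, with 56.3% and 65.4% in KYSE30 and 46.2% and 48.0% in TE-1 (13.7 ± 2.4 points, adjusted p = 0.00982). Its sites lie in different terminal exons, as do those of SLC38A6, which had 63.3% and 65.1% in KYSE30 and 42.9% and 47.0% in TE-1 (19.3 ± 5.5 points, adjusted p = 0.0409). SLC25A36 was 20.7 ± 6.3 points higher in KYSE30 (adjusted p = 0.0481), although its KYSE30 l-lactate value of 57.6% lay under the TE-1 control at 58.2%. The haem transporter SLC48A1 had 22.7% and 28.2% in KYSE30 and 14.7% and 10.96% in TE-1 (12.6 ± 3.5 points, adjusted p = 0.039). SLC7A6, a basic amino acid exchanger that was named after its values were seen, had 86.3% and 88.6% against 80.9% and 72.2% (10.9 ± 3.0 points, adjusted p = 0.0358). Of these genes, only SLC30A5 had each site above 5 TPM in both lines. The distal sites of SLC38A6 (4.605 and 3.75 TPM in TE-1) and SLC48A1 (3.42 and 3.08 TPM in TE-1) passed 5 TPM in KYSE30 alone. The proximal sites of SLC25A36 and SLC7A6 passed it in TE-1 alone. Those calls therefore rest on sites that entered through a single line.

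In SLC36A4 the proximal site was not listed in KYSE30, where usage was therefore 100%, and TE-1 had 85.1% and 87.7% (adjusted p = 0.0211). That site passed 5 TPM in TE-1 alone, at 6.73 and 6.16 TPM, and the gene stood at 14.9 and 15.4 TPM in KYSE30, so at this depth the call cannot be told apart from the listing limit. In TE-1, SLC35F5 had 66.4% and 59.3% against 46.0% and 40.7% in KYSE30 (-19.5 ± 5.5 points, adjusted p = 0.0385). The proximal site of SLC35F5 passed 5 TPM in KYSE30 alone (6.55 and 7.27 TPM, against 4.37 and 4.23 TPM in TE-1). SLC1A4 had 61.5% and 51.4% in TE-1 and 36.1% of 36 tags in the KYSE30 control, while its distal site was not listed in KYSE30 with l-lactate, where 19 tags lay at the proximal site (-38.4 ± 11.4 points, adjusted p = 0.0454). Both of its sites passed 5 TPM in TE-1 alone, and the unlisted site entered the fit as 0, so this call too rests on the line where the gene is high.

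**Figure D5:**
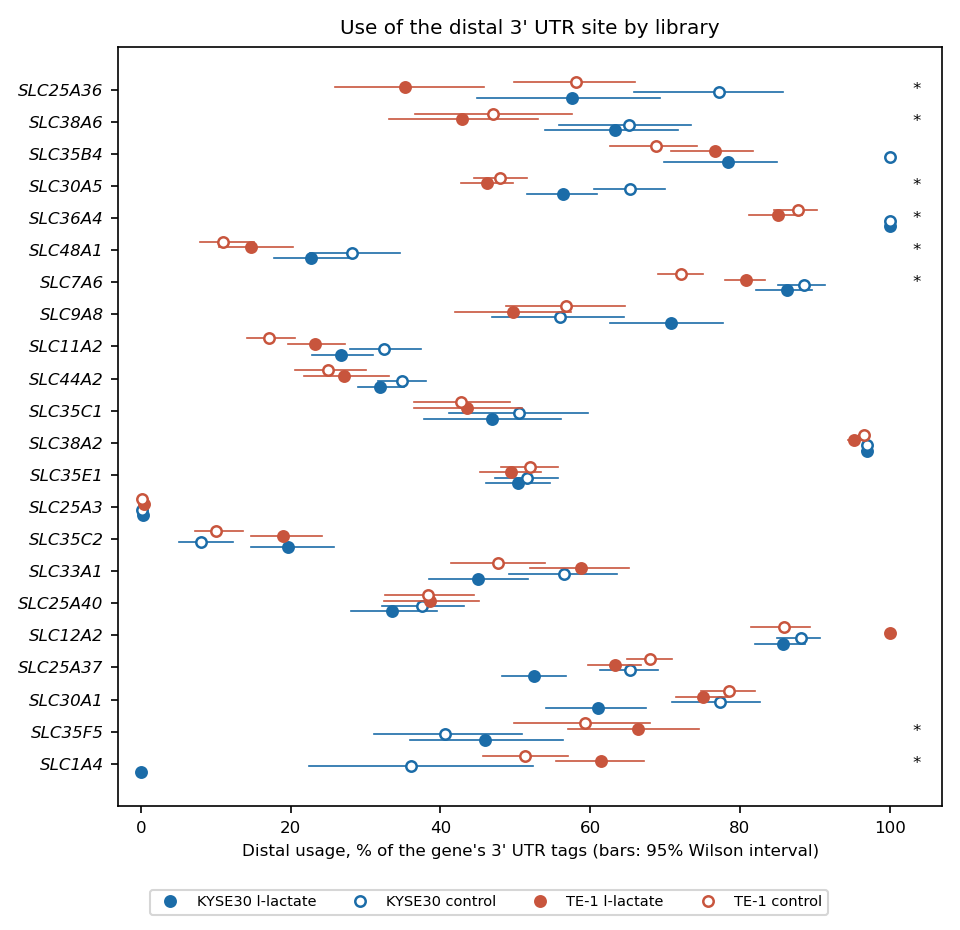
Distal usage in % of 3′ UTR tags for the 22 members with a value in all 4 libraries; filled symbols are l-lactate, open symbols control, bars Wilson 95% intervals (none at 0 or 100%, where a site was not listed), and stars the 8 members called between the lines. SLC38A2 stayed between 95.3% and 97.0% and SLC25A3 under 0.5%, while SLC1A4 spread from 0 to 61.5%.

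Some members, SLC35E1 and SLC25A40 among them by choice after their values were seen, varied little over the 4 libraries. SLC38A2 used its distal site for 95.3% to 97.0% of tags and SLC25A3 for 0.189% to 0.424%. SLC35E1, a Golgi carrier family member, had 50.4%, 51.6%, 49.4% and 52.0%, and SLC25A40, a mitochondrial glutathione carrier, 33.6%, 37.5%, 38.6% and 38.3%.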

How the data were processed

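PAS-seq was done by the study on 4 libraries. Per its methods, reads were trimmed with FASTX-Toolkit, aligned to GRCh38 with HISAT2 (the submitters' processing notes name GRCh38.p14), and turned into PACs with CAGEr, with low sites removed and nearby PACs joined. The deposited values are RPM, given as the TPM of each PAC, tags scaled to library depth. Tag counts were recovered from the spacing of these values (100% of values within 0.001 of a whole tag).

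PACs were placed on GENCODE 44 by dominant site (3′ UTR, exon, then gene body) and summed per gene, leaving out 40 PACs shared by genes. Levels were log2(TPM + 1), over 9413 protein-coding genes with a PAC above 5 TPM. Level and distal usage were fitted with limma 3.58.1 (line and treatment as terms, mean-variance trend) in R 4.3.3, two-sided, with Benjamini-Hochberg adjustment over all genes tested. Its spread is the disagreement between the lines' responses, with 1 residual degree of freedom, moderated by empirical Bayes across the genes tested. Each SE and p-value thus draws largely on a variance shared among genes of similar level. The p-values measure only the spread between these libraries, which may be technical. Within a line, distal usage needed 2 sites that each passed 5 TPM in a library of that line. Intervals at 95% (Wilson, Newcombe, exact binomial for tag ratios) cover counting error only. The fits were tested on simulated data. Other software was SciPy 1.17.1, pandas 2.3.3, NumPy 2.4.6 and matplotlib 3.10.9, under Python 3.11.15.

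The members, the transporter classes (by SLC family number) and the other gene lists were chosen with earlier results of these data known. Genes were named where distal usage changed by 10 points in a line, for the 5 largest rises and falls shared by the lines above 10 TPM in every library, for the 8 highest in each line among called members, for the highest member of each class, for up to 5 called distal differences each way, and from a list of well-known carriers, the sodium pump and the amino acid response. Others were named after their values were seen, as the text says, including those called only under an alternative. Some results are not reported here. Alternatives changed the pseudocount, filter, scaling, PAC placement, minimum TPM, terms of the fit and libraries.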

Additional observations from a re-analysis of the deposited data

Results flagged for a closer look

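The change in distal usage of SLC33A1 with l-lactate was -11.4 percentage points in KYSE30 and 11.1 percentage points in TE-1, past 10 points in opposite directions. The gene was chosen for this pattern, each line has 1 library per condition, and the difference between the lines was not tested.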

How the results depend on the processing

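The 71 members called in level between the lines ranged from 53 to 57 with a library left out and stayed within 1.5 times under the other alternatives (53 to 72). No member was called for l-lactate in level except with a pseudocount of 5 (6 members). For l-lactate in distal usage, 2 members were called with PACs above 10 TPM and 4 where each PAC had to be listed in every library. The 8 members called in distal usage between the lines became 2 with PACs above 1 TPM, 2 above 10 TPM, 5 when every PAC had to be listed in each library, 1 on the logit scale, and 0 (0 to 0) with a library left out. The cause was not tested, and the fits with a library left out had fewer libraries and also lacked the l-lactate term. Members past the fold within KYSE30 fell from 14 to 6 at 2-fold and to 8 with a pseudocount of 5, and within TE-1 from 9 to 0 and 2. Members past 10 points numbered 5 in KYSE30, and 10 at 5 points, 0 at 20 points, 16 with PACs above 1 TPM, 3 above 10 TPM and 3 with Fisher's exact test added. In TE-1 they numbered 3, and 8 at 5 points, 1 at 20 points, 8 with PACs above 1 TPM and 1 with Fisher's test. No value of a named gene that passed its threshold changed direction. No paired analysis was possible because each group holds 1 library, beyond the line term of the fit, which sets each l-lactate library against the control of its line. Fits of the l-lactate term with a library left out have no residual degrees of freedom, so the fits with a library left out held the line term alone. The count-model alternatives (edgeR and DESeq2) were not run. Recovered tags were used for distal usage, counting intervals, Fisher's test and the scaling alternative. Sites under about 1 TPM cannot be seen at this depth, nor can PACs of a single site under 3 TPM, which the study's methods removed.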

Other observations

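Some carriers had a PAC just past their annotated end and so were not members or gained no tags from it. SLC29A1, the main equilibrative nucleoside transporter, had a PAC 1 nt past its end with 54.8 and 61.9 TPM in KYSE30 (l-lactate, then control) and 128 and 114 TPM in TE-1. SLC22A5, the carnitine transporter, had one 1 nt past its end with 27.2, 31.8, 10.98 and 10.9 TPM.

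Intronic PACs carried a large share of the tags of a few members. SLC9B2, a sodium-proton exchanger family member, had an intronic PAC at 13.9 and 9.72 TPM in TE-1, 51.9% of its tags there, that was not listed in KYSE30. In SLC25A53 an intronic PAC held 77.5% of the tags in KYSE30 and 88.3% in TE-1, and the only PAC of SLC26A3, an intestinal chloride-bicarbonate exchanger, was intronic. An intronic PAC of SLC30A9 held 12.3% of its tags in KYSE30 and 3.9% in TE-1. These genes were named after their values were seen, and the differences were not tested.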
